A study of Homo sapiens with 8 samples.

Results

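Cytosolic HSP90 and HSP70 chaperones were followed in A549 cells through 10 genes, taken by gene symbol from the 57820 genes of each library's table. The members are HSP90AA1, HSP90AB1, HSPA8, HSPA4, HSPH1, HSPA1A, HSPA1B, DNAJB1, DNAJA1 and HSPB1, and all 10 passed the filter on low counts that left 11218 genes for testing. A549 is an established human lung adenocarcinoma line. In one experiment the cells carried a vector that overexpresses MGA, a transcription factor that binds DNA together with MAX, the partner of MYC, or an empty vector. In the other they received an siRNA against the MYC oncogene (siMYC) or a control siRNA (siNC). Each of the 4 groups had 2 libraries, called A and B. The labels used here give neither the promoter of the vector, nor the doses, nor the time of treatment, and the whole study rests on a single cell line. The comparisons ask how the chaperone genes respond to MGA and to loss of MYC, and whether the responses differ.

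HSP90 is a dimeric ATPase that matures kinases, hormone receptors and other client proteins. HSP70 binds unfolded stretches of new or damaged proteins, J-domain proteins bring it substrates and start its ATP hydrolysis, and exchange factors of the HSP110 family release the ADP so that the substrate can leave. Small heat shock proteins such as HSPB1 hold unfolded proteins without ATP. Cells make several of these proteins at all times and raise others after stress through the heat shock factor HSF1, which binds repeats of GAA and its complement TTC.

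The libraries were shallow, with total expected counts of 917548 to 1176890 with MGA, 820428 to 844477 with empty vector, 1598792 to 2129006 with siMYC and 1398805 to 1741730 with siNC. The manipulated genes bore out the labels. MGA stood at 102500 and 103700 normalised read counts scaled to library size (CPM) in MGA libraries, against 121.6 and 81.5 CPM with empty vector, and its reads made up 9.54% and 9.68% of the MGA libraries. MYC stood at 48.3 and 41.1 CPM with siMYC, against 219 and 183 CPM with siNC. In the vector experiment MYC was not lower with MGA, at 296 and 347 CPM, against 234 and 241 CPM with empty vector. The epithelial keratins KRT8, KRT18 and KRT7 were high in all 8 libraries (at least 993 TPM, a unit scaled for length and library size). The rest of the epithelial list was far lower: KRT19 at 9.18 to 154.7 TPM, CDH1 at 6.16 to 49.95 TPM and CLDN4 at 1.26 to 12.52 TPM. EPCAM reached at most 14.85 TPM and was listed at 0 in 3 libraries. Endothelial markers were at 0 throughout, as were the immune markers PTPRC and CD3E and the fibroblast marker DCN. The summed fibroblast list, carried by COL1A1, stood at 87.0 to 87.7 TPM with siMYC, against 10.9 to 20.3 TPM with siNC. The summed immune list, carried by CD68, stood at 38.3 to 41.8 TPM with siMYC, against 16.4 to 18.3 TPM with siNC, and at 137 to 150 TPM with MGA, against 162 to 176 TPM with empty vector. The fibroblast list moved with the siMYC results below and the immune list with the results of both comparisons, and their part in those results was not tested. In bulk RNA, fewer cells of a type and less RNA per cell cannot be told apart.

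With MGA, HSP90AA1, HSP90AB1 and HSPA8 fell and no member rose. The other 7 members did not pass the test in edgeR, and 0 members rose with DESeq2 or, in edgeR, at an unadjusted p under 0.05. The fallers are the inducible and the constitutive HSP90 and the constitutive HSP70. Over all genes tested, 4.0% fell, 4.96% rose and 8.96% were called in either direction at an adjusted p under 0.05. The median log2 fold change was -0.21 over the 10 members and 0.01 over all genes tested. The groups did not overlap for 6 members, against 52.6% of all genes tested.

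With siMYC, 8 members fell, HSPB1 rose and DNAJB1 did not pass. HSPA1A and HSPA1B, which share reads, are both among the fallers. With this pair and other near-identical copies summed, 7 fell and 1 rose. HSPH1, an HSP110 exchange factor, fell most in log2 terms, to 0.403 of its siNC level (95% interval 0.333 to 0.488). In this comparison 20% of all genes tested fell, 19.0% rose and 39.0% were called. The median log2 fold change was -0.59 over the members and 0.01 over all genes tested, and the groups did not overlap for 6 members, against 67.6% of all genes tested. HSPA1A, HSPA1B and DNAJA1 fell although their siMYC and siNC libraries overlapped, and their calls were lost when siNC replicate A or siMYC replicate B was left out.

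**Figure D1:**
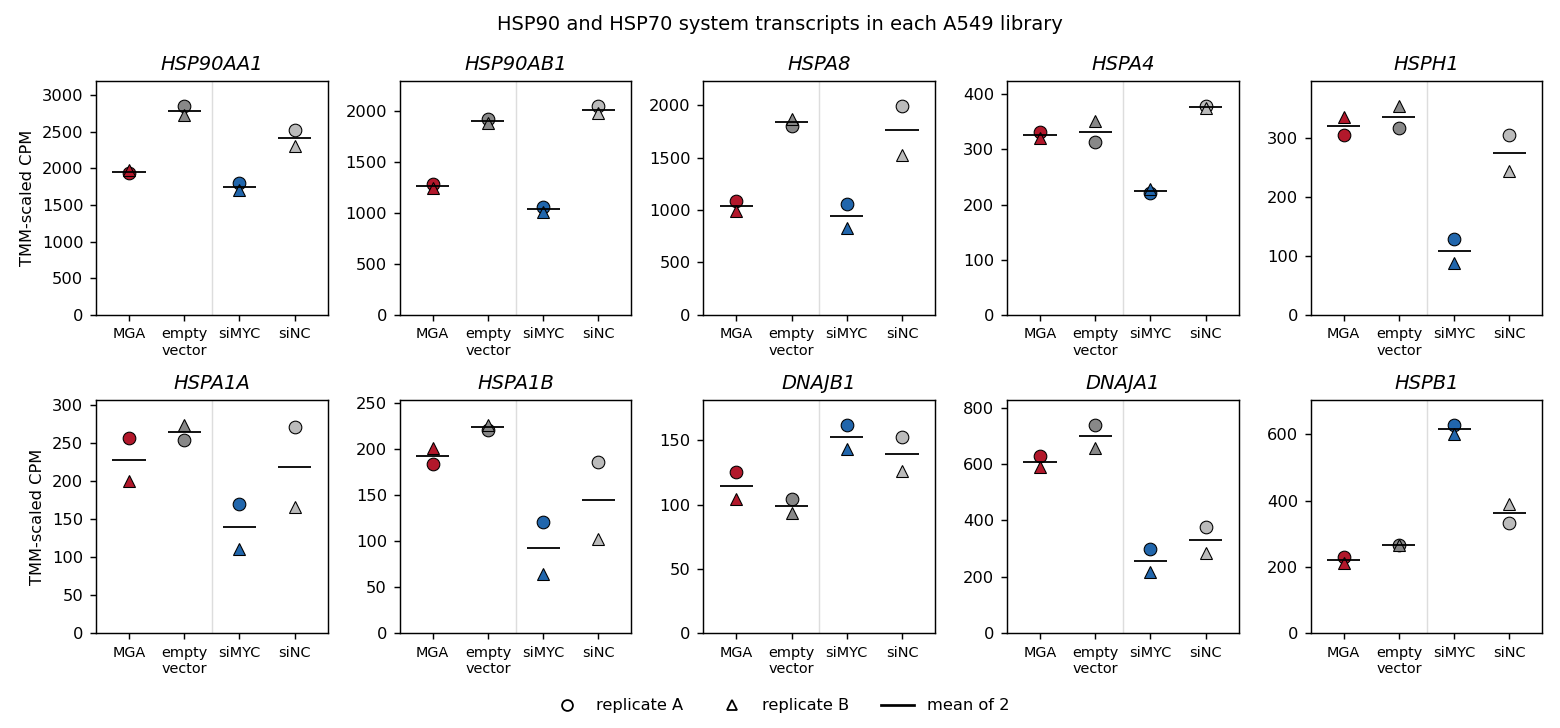
Normalised read counts (CPM, linear axis from 0) of each member in each library, with MGA left of empty vector and siMYC left of siNC; marker shapes give replicates A and B, and bars are group means. HSP90AA1, HSP90AB1 and HSPA8 lie lower with MGA and with siMYC than in the matching controls, and HSPB1 lies higher with siMYC at 629 and 601 CPM.

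HSP90AA1 encodes HSP90 alpha, the form that stress raises. It stood at 1937 and 1971 CPM with MGA, against 2849 and 2727 CPM with empty vector. Both MGA libraries were lower than both controls, at a log2 change of -0.51 (SE 0.07, adjusted p = 2e-05, fold 0.701 with a 95% interval of 0.632 to 0.777). With siMYC it stood at 1802 and 1699 CPM, against 2518 and 2306 CPM with siNC. The groups again did not overlap, at a log2 change of -0.46 (SE 0.07, adjusted p = 6.6e-06). The MGA call was lost on log2(TPM + 0.1) in limma (adjusted p = 0.056), and the siMYC call on both TPM scales (adjusted p = 0.058 and 0.059).

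HSP90AB1 encodes HSP90 beta, the constitutive form. Its values were 1289 and 1242 CPM with MGA, against 1922 and 1888 CPM with empty vector. All MGA values were lower, at -0.59 in log2 units (SE 0.07, adjusted p = 3.8e-06). With siMYC they were 1055 and 1014 CPM, against 2050 and 1980 CPM with siNC. This fall was -0.96 in log2 units (SE 0.07, adjusted p = 3.6e-11), to 0.514 of the siNC level (95% interval 0.464 to 0.569). Both HSP90AB1 calls held in all 19 alternatives run for each. Per length, the ratio of HSP90AB1 to HSP90AA1 in TPM was 0.886 and 0.846 with MGA, against 0.905 and 0.922 with empty vector, and 0.784 and 0.802 with siMYC, against 1.09 and 1.15 with siNC. HSP90AB1 was thus the higher of the pair with siNC and the lower with siMYC.

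HSPA8 encodes HSC70, the HSP70 that cells make without stress. It stood at 1084 and 988 CPM with MGA, against 1804 and 1872 CPM with empty vector. The MGA libraries were lower, at -0.82 in log2 units (SE 0.11, adjusted p = 5.7e-06, fold 0.565 with a 95% interval of 0.486 to 0.656). The siMYC libraries gave 1057 and 825 CPM, against 1991 and 1528 CPM with siNC. The replicates of the siRNA groups lay further apart than those of the vector groups, but siMYC stayed below siNC, at -0.90 in log2 units (SE 0.10, adjusted p = 6.6e-08). The MGA call was lost on both TPM scales in limma (adjusted p = 0.098 and 0.11), and the siMYC call on log2(TPM + 0.1) (adjusted p = 0.054). In TPM, HSPA8 stood at 1157 and 805 with MGA, against 1632 and 1749 with empty vector.

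The promoters of HSP90AA1, HSP90AB1 and HSPA8, the members that fell in both comparisons with groups apart, are shown beside those of HSPH1, which fell with siMYC, and HSPB1, which rose with siMYC. Each runs 5′ to 3′ on the gene's strand from 250 bases before to 50 bases after a RefSeq start site (GRCh38.p14). Capitals mark GAANNTTC, and the longer run where NN and a further GAA follow it on either strand, a string of 3 units that holds GAANNTTC by construction. Where a gene has several windows the one with the match is shown. The remaining windows of HSP90AA1 and HSP90AB1 held 0 matches to GAANNTTC. The windows are chr14:102086995-102087294 (minus strand), chr6:44247693-44247992 (plus strand), chr11:123062087-123062386 (minus strand), chr13:31162339-31162638 (minus strand) and chr7:76302423-76302722 (plus strand), in the order shown.
HSP90AA1: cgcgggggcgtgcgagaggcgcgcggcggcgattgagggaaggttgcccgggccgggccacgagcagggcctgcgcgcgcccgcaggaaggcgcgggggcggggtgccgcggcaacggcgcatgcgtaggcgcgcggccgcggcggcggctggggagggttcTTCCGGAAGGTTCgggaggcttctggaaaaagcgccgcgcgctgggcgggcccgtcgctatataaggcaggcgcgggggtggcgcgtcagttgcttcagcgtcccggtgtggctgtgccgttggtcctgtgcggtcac
HSP90AB1: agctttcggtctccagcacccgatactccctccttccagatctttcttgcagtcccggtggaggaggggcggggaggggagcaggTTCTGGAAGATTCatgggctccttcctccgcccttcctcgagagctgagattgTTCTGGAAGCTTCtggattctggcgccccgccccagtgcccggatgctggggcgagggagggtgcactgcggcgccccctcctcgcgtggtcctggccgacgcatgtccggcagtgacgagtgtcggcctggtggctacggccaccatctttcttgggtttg
HSPA8: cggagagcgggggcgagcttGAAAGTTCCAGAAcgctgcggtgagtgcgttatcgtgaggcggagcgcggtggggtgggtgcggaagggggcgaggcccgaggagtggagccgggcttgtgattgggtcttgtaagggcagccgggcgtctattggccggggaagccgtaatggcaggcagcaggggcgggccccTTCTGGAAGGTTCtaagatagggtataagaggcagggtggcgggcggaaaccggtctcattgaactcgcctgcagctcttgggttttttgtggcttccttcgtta
HSPH1: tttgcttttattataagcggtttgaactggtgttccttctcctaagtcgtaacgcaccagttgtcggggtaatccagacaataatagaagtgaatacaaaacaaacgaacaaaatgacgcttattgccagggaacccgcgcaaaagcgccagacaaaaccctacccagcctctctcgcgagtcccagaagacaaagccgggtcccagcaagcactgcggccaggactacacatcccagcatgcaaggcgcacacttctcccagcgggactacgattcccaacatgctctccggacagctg
HSPB1: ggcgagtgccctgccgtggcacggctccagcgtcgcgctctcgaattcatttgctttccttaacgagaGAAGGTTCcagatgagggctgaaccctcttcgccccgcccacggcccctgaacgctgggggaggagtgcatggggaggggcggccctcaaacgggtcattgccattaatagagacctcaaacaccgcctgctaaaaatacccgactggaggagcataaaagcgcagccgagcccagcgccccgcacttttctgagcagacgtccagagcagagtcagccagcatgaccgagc

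The letters GAANNTTC stood in a window of 8 of the 10 members, all but HSPA4 and HSPH1, and in 8.21% of the 27305 genes with a promoter window. The longer string of GAANNTTC with NN and GAA after it, on either strand, stood in 4 members (HSP90AA1, HSP90AB1, HSPA8 and DNAJA1) and in 0.608% of genes. CACGTG, the letters that MYC and MGA bind with MAX, stood in the windows of 0 members and of 8.77% of genes. CCAAT stood in 5 members and in 39.7% of genes, searched like the others on both strands. HSP90AA1 has 2 windows in the table, and HSP90AB1 and DNAJB1 have 3 each, so the members give 15 windows. A match is a run of letters, not a measured site, and these windows do not cover more distant sequence.

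HSPA4 and HSPH1 encode HSP110 proteins, which exchange nucleotide on HSP70. HSPA4 stood at 331 and 321 CPM with MGA, against 313 and 351 CPM with empty vector, so the MGA values lay between the controls (log2 fold change -0.02, SE 0.10, adjusted p = 0.93). The interval of its fold was 0.849 to 1.14. Its siMYC values were 220 and 228 CPM, against 379 and 375 CPM with siNC. The siMYC libraries were both lower, and the fall was -0.75 in log2 units (SE 0.09, adjusted p = 2.9e-07).

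HSPH1 stood at 306 and 337 CPM with MGA, against 317 and 355 CPM with empty vector (log2 fold change -0.07, SE 0.13, adjusted p = 0.82, interval of the fold 0.788 to 1.15). In siMYC cells it stood at 129 and 87.8 CPM, against 305 and 244 CPM with siNC. The siMYC libraries lay far below both controls, at -1.31 in log2 units (SE 0.13, adjusted p = 1.2e-08). By TPM, HSPH1 ranked 2466 and 3885 among the genes of the siMYC libraries, against 962 and 1297 in the siNC libraries. The siMYC calls of HSPA4 and HSPH1 held in all 19 alternatives.

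HSPA1A and HSPA1B encode nearly the same stress-inducible HSP70, and reads that fit both were divided between them by RSEM, so their sum is given beside them. Their promoter windows share 277 of 299 bases (92.6%) when shifted by 1 base. HSPA1A took 49.7% to 63.3% of the counts of the pair across libraries. The sum stood at 442 and 401 CPM with MGA, against 476 and 501 CPM with empty vector. Both MGA values were lower, but the log2 fold change of -0.21 did not pass (SE 0.18, adjusted p = 0.53, interval of the fold 0.674 to 1.11). With siMYC the sum stood at 291 and 175 CPM, against 458 and 268 CPM with siNC. The groups overlapped, since siMYC replicate A lay above siNC replicate B. On the log2 scale the sum fell by 0.61 (SE 0.17, adjusted p = 0.0051), and the change was -0.60 for HSPA1A alone (adjusted p = 0.0056) and -0.58 for HSPA1B alone (adjusted p = 0.025). The call for the sum was lost without siNC replicate A (-0.18, adjusted p = 0.40) and without siMYC replicate B (-0.31, adjusted p = 0.13), and also with DESeq2 and on TPM in limma. In TPM, the pair made up 16.1% and 13.0% of HSPA8 plus the pair with siMYC, against 13.5% and 11.3% with siNC, and 20.5% and 24.5% with MGA, against 16.2% and 15.3% with empty vector.

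DNAJA1 and DNAJB1 are J-domain partners of HSP70, and DNAJB1 (HSP40) is heat-inducible. DNAJA1 stood at 628 and 590 CPM with MGA, against 740 and 658 CPM with empty vector. These groups did not overlap, but the log2 fold change of -0.20 did not pass (SE 0.12, adjusted p = 0.35). With siMYC it stood at 298 and 217 CPM, against 379 and 285 CPM with siNC, and the groups overlapped. The fall was -0.35 in log2 units (SE 0.12, adjusted p = 0.027). The DNAJA1 call was lost in 10 of 19 alternatives, among them other size factors, DESeq2, and a fit of the siRNA libraries alone. DNAJB1 stood at 125 and 104 CPM with MGA, against 104 and 93.5 CPM with empty vector (log2 fold change 0.22, SE 0.17, adjusted p = 0.47). The siMYC libraries gave 162 and 143 CPM, against 152 and 127 CPM with siNC (0.14, SE 0.12, adjusted p = 0.37). DNAJB1 overlapped between siMYC and siNC, and the interval of its fold was 0.928 to 1.32. The ratio of DNAJB1 to DNAJA1 in TPM was 0.549 and 0.740 with siMYC, against 0.371 and 0.441 with siNC.

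HSPB1 encodes HSP27, a small heat shock protein that holds unfolded proteins and binds actin. It stood at 231 and 212 CPM with MGA, against 265 and 265 CPM with empty vector. The MGA libraries were lower, but the log2 fold change of -0.26 did not pass (SE 0.12, adjusted p = 0.18). Its siMYC values were 629 and 601 CPM, against 334 and 390 CPM with siNC. Both siMYC libraries were above both controls, by 0.76 in log2 units (SE 0.09, adjusted p = 1.4e-07), a fold of 1.70 (95% interval 1.49 to 1.93). The rise held in all 19 alternatives. In TPM, HSPB1 stood at 1429 and 1322 with siMYC, against 667 and 771 with siNC, and its ratio to HSPA8 in TPM was 1.33 and 1.59 with siMYC, against 0.358 and 0.573 with siNC. HSPB1 had the highest TPM of the 10 members in both siMYC libraries.

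The responses to MGA and to siMYC share no library, and their difference was tested in the same fit. Of all genes tested, 18.5% differed, 10.3% with the higher value for MGA and 8.22% with the lower, and of the members 3 differed in the first sense and 1 in the second. HSPH1 differed by 1.24 on the log2 scale (MGA response -0.07, siMYC response -1.31, SE 0.19, adjusted p = 2.9e-05). HSPA4 differed by 0.73 (MGA response -0.02, siMYC response -0.75, SE 0.14, adjusted p = 0.00046). HSP90AB1 differed by 0.37 (MGA response -0.59, siMYC response -0.96, SE 0.10, adjusted p = 0.011). HSPB1 differed by -1.02 (MGA response -0.26, siMYC response 0.76, SE 0.15, adjusted p = 1.4e-05), and its difference held in all 18 alternatives.

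The responses of HSP90AA1 (difference -0.05, SE 0.10, adjusted p = 0.78) and HSPA8 (0.07, SE 0.15, adjusted p = 0.79) lay close together. The difference for the sum of HSPA1A and HSPA1B was 0.40 (SE 0.24, adjusted p = 0.28). It passed without siNC replicate B (0.75, adjusted p = 0.0087) and without siMYC replicate A (0.83, adjusted p = 0.0093), and was -0.03 without siNC replicate A (adjusted p = 0.96). The differences of DNAJA1 and DNAJB1 were 0.15 (adjusted p = 0.61) and 0.08 (adjusted p = 0.84). A p that misses the threshold does not show equal responses. The HSP90AB1 difference was lost in 5 of 18 alternatives, and those of HSPA4 and HSPH1 on TPM in limma. Over all genes tested, 1.91% fell in both comparisons, and HSP90AA1, HSP90AB1 and HSPA8 were the members among them.

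**Figure D2:**
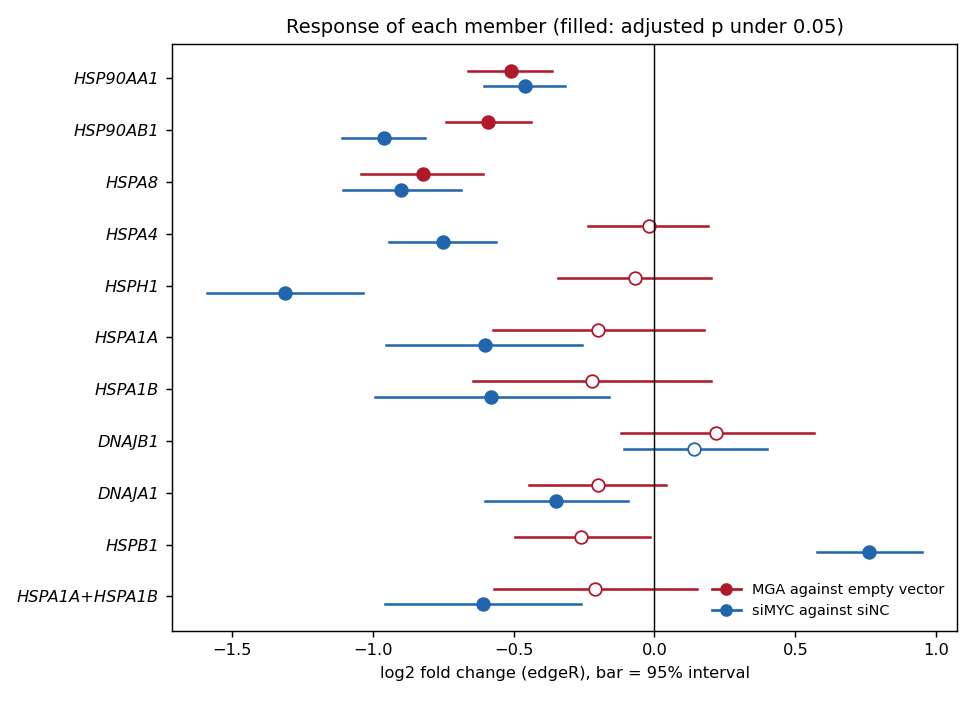
Log2 fold change (linear axis, log2 units) of each member and of the HSPA1A and HSPA1B sum for MGA against empty vector and siMYC against siNC, with bars for 95% intervals and filled markers for adjusted p under 0.05. HSPH1 and HSPA4 lie near 0 with MGA and at -1.31 and -0.75 with siMYC, and HSPB1 stands at -0.26 with MGA and at 0.76 with siMYC.

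Across the 4 groups, the levels of HSP90AA1, HSP90AB1 and HSPB1 had no overlapping neighbours. The order was empty vector, siNC, MGA, siMYC from high to low for HSP90AA1, and siNC, empty vector, MGA, siMYC for HSP90AB1. HSPA8 followed the order of HSP90AA1, but its controls overlapped each other and so did MGA and siMYC. For HSPB1 the order was siMYC, siNC, empty vector, MGA. DNAJA1 was higher in the vector experiment (590 to 740 CPM) than in the siRNA experiment (217 to 379 CPM), with MGA and empty vector above siNC and siMYC. HSPA4 followed the order of HSP90AB1, with MGA and empty vector overlapping, and DNAJB1 ran from siMYC over siNC and MGA to empty vector, with overlap within each experiment. HSPH1, HSPA1A and HSPA1B ran from empty vector over MGA and siNC to siMYC, HSPH1 overlapping only between MGA and empty vector, HSPA1A between all neighbours, and HSPA1B between all but MGA and empty vector. Between experiments, group and experiment cannot be told apart. The 10 members together made up 4545 and 4052 TPM with MGA, against 5930 and 5845 TPM with empty vector, and 4862 and 4191 TPM with siMYC, against 5869 and 4999 TPM with siNC.

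Within the siRNA experiment the replicates were uneven for HSPA1A, HSPA1B, HSPA8, HSPH1 and DNAJA1, in the same direction in both groups. The sum of HSPA1A and HSPA1B in replicate A was 1.66 times that in replicate B with siMYC and 1.71 times with siNC, while the ratio was 1.10 with MGA and 0.949 with empty vector. For HSPA8 it was 1.28 with siMYC and 1.30 with siNC, for HSPH1 1.47 and 1.25, and for DNAJA1 1.37 and 1.33. Of the 10 members, 9 were higher in replicate A with siMYC and 9 with siNC, against 7 with MGA and 4 with empty vector. The median log2 ratio of A to B was 0.27 over the members with siMYC and 0.30 with siNC, while over the 4599 genes of at least 50 CPM on average it was -0.001 with siMYC and -0.01 with siNC.

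What the letters A and B stand for is not given. Taken letter by letter, as a description, the sum of HSPA1A and HSPA1B was 0.635 (A) and 0.652 (B) of siNC with siMYC, and DNAJA1 was 0.787 and 0.761. HSPA8 was 0.531 and 0.540 of siNC, and HSP90AB1 was 0.515 and 0.512. Each siMYC library of HSPA1A, HSPA1B and DNAJA1 thus lay below the siNC library of the same letter, although the groups overlapped.

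**Figure D3:**
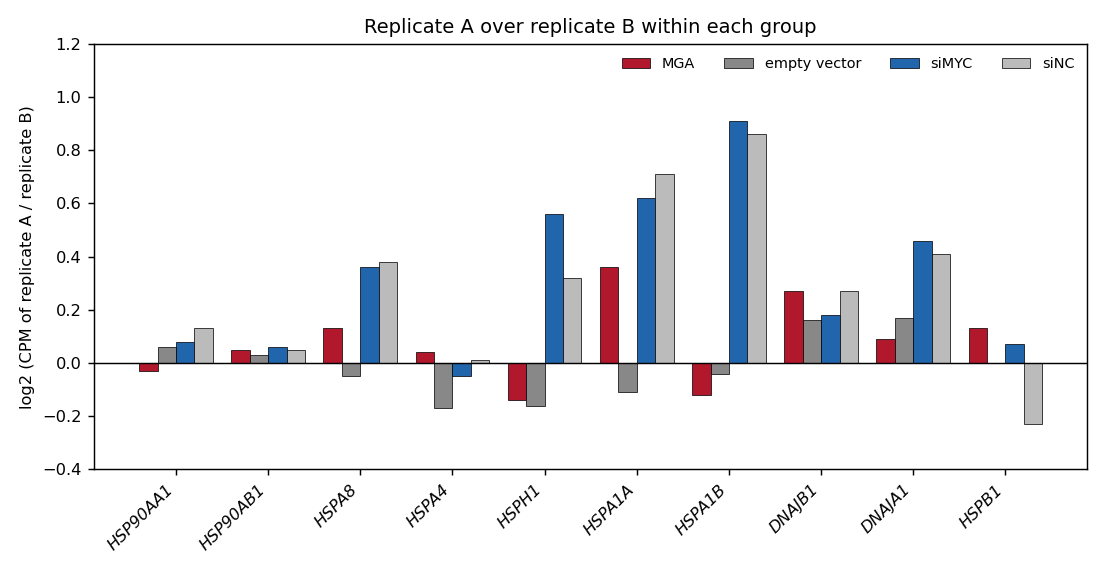
Log2 ratio of replicate A to replicate B in CPM for each member, 1 bar per group and bars starting at 0. With siMYC and with siNC 9 of 10 members lie above 0, and HSPA1A and HSPA1B have the tallest bars.

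Counts of near-identical copies were small beside those of the members. HSP90AA1, HSP90AB1, HSPA8, DNAJA1, HSPB1 and DNAJB1 have 1 to 17 annotated pseudogenes each in the tables, and none passed the filter on low counts. Their counts came to at most 0.0743% of the member's (HSPA8), and HSPA1L to at most 1.71% of HSPA1A. Reads of a processed pseudogene that RSEM gave to the member cannot be seen in these values.

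The HSP90 co-chaperones, 27 listed and 26 tested, carry clients to HSP90 or set the pace of its ATP cycle. With siMYC 17 fell and 2 rose, with a median log2 fold change of -0.60, where 20% of all genes tested fell and 19.0% rose. With DESeq2 11 fell and 0 rose, and on log2(TPM + 1) in limma 7 fell and 1 rose, at a median of -0.33 (0.139 over all genes). With MGA 3 fell and 1 rose, where 4.0% of all genes tested fell and 4.96% rose. The median with MGA was -0.10, against 0.01 over all genes tested. The riser, TOMM34, a cytosolic partner of HSP70 and HSP90 in mitochondrial import, was chosen after its values were seen (0.77 with MGA, adjusted p = 0.014, and -0.68 with siMYC, adjusted p = 0.004). The MGA count depended on single libraries: 2 fell and 0 rose without empty vector replicate A or without MGA replicate B. It also depended on the tool: with MGA 2 fell and 0 rose with DESeq2, and 1 fell and 0 rose on either TPM scale in limma. Scaled by library sizes alone, 6 fell and 1 rose. STIP1 (HOP), which links HSP70 to HSP90, stood at 262 and 217 CPM with MGA, against 379 and 405 CPM with empty vector (log2 fold change -0.70, adjusted p = 8.2e-05, lost on both TPM scales in limma). In siMYC cells it stood at 273 and 268 CPM, against 491 and 495 CPM with siNC (-0.86, adjusted p = 2.6e-08). The libraries of STIP1 were apart in both comparisons.

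PTGES3 (p23), which holds HSP90 in its closed form, stood at 226 and 245 CPM with MGA, against 485 and 444 CPM with empty vector (log2 fold change -0.98, adjusted p = 2.3e-07). With siMYC it stood at 418 and 419 CPM, against 617 and 614 CPM with siNC (-0.56, adjusted p = 6.3e-06, lost on both TPM scales in limma). The fall was larger with MGA, the difference between the responses being -0.43 in log2 units (adjusted p = 0.025), a call lost in 6 of 18 alternatives. FKBP4 (FKBP52), an immunophilin of steroid receptor complexes, fell by 0.47 with MGA (adjusted p = 0.013, lost when any library of the MGA or empty vector groups was left out, with DESeq2 and on both TPM scales) and fell by 0.94 with siMYC (adjusted p = 1.4e-08). RUVBL1, an ATPase of the R2TP complex that works with HSP90, fell by 1.43 with siMYC (adjusted p = 3.3e-08) and was at -0.43 with MGA (adjusted p = 0.20). AHSA1, which speeds the ATPase of HSP90, fell by 0.81 with siMYC (adjusted p = 1.6e-06, lost on both TPM scales) and was at -0.01 with MGA (adjusted p = 0.97).

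Of the other J-domain proteins, 20 listed and 19 tested, 4 rose and 0 fell with MGA (edgeR), where 4.96% of all genes tested rose and 4.0% fell, and the median log2 fold change was 0.33. At an unadjusted p under 0.05 in edgeR 6 rose and 0 fell, and with DESeq2 1 rose and 0 fell. On either TPM scale in limma 0 rose and 0 fell. Without empty vector replicate A or B, 1 rose, and without MGA replicate B, 2 rose. With siMYC 3 rose and 4 fell in edgeR, where 19.0% of all genes tested rose and 20% fell. With DESeq2 and on either TPM scale 2 rose and 1 fell with siMYC. DNAJB2, a neuronally enriched partner that binds ubiquitin chains, stood at 86.7 and 72.4 CPM with MGA, against 45.2 and 40.8 CPM with empty vector (log2 fold change 0.90, adjusted p = 0.0049, lost without empty vector replicate B or MGA replicate A, with DESeq2 and on both TPM scales). The siMYC libraries gave 81.8 and 72.4 CPM, against 35.0 and 29.2 CPM with siNC (1.28, adjusted p = 8.7e-07). DNAJB4, a relative of DNAJB1, rose by 1.02 with MGA (adjusted p = 0.0025, lost without empty vector replicate A) and by 0.97 with siMYC (adjusted p = 0.00041, lost without siMYC replicate A), and both calls were lost on both TPM scales. DNAJC2, the ribosome-bound J-domain protein, stood at 96.7 and 124 CPM with MGA, against 75.3 and 67.2 CPM with empty vector (0.61, adjusted p = 0.034, lost in 8 of 19 alternatives, among them those without empty vector replicate A or B or without MGA replicate B). Its siMYC values were 30.3 and 37.4 CPM, against 64.3 and 81.6 CPM with siNC (-1.13, adjusted p = 1.1e-05). DNAJC2 thus rose in one comparison and fell in the other, a difference of 1.75 (adjusted p = 1.7e-05) that held in all 18 alternatives. DNAJC9, a histone chaperone, fell by 0.55 with siMYC (adjusted p = 0.0015, lost with DESeq2 and on both TPM scales).

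Of the exchange factors and other HSP70 partners, 17 listed and 14 tested, 6 fell and 0 rose with siMYC (edgeR). Over all genes tested, 20% fell and 19.0% rose with siMYC. With MGA 1 of the list fell and 0 rose (edgeR), where 4.0% of all genes tested fell and 4.96% rose. With siMYC 4 fell with DESeq2 and 1 on either TPM scale in limma. At an unadjusted p under 0.05, 1 rose with siMYC and 1 with MGA, and with DESeq2 0 of the list were called with MGA. HSPA4L, another HSP110 protein, stood at 73.9 and 67.8 CPM with MGA, against 71.8 and 49.2 CPM with empty vector (log2 fold change 0.23, adjusted p = 0.55). In siMYC cells it stood at 21.1 and 17.8 CPM, against 57.9 and 51.9 CPM with siNC (-1.47, adjusted p = 1.7e-06). Like HSPA4 and HSPH1, it differed between the responses, by 1.70 (adjusted p = 0.00011). The exchange factors BAG5 (log2 fold change -1.01, adjusted p = 2.2e-05) and HSPBP1 (-0.73, adjusted p = 0.00034) and the HSP90 partner CHORDC1 (-0.95, adjusted p = 1.4e-05) fell with siMYC, and none of the 3 passed with MGA. The siMYC calls of these 3 were lost on both TPM scales. The single faller with MGA, BAG2, was chosen after its values were seen (-0.74, adjusted p = 0.049), and the count of the list with MGA fell to 0 when any MGA or empty vector library was left out.

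**Figure D4:**
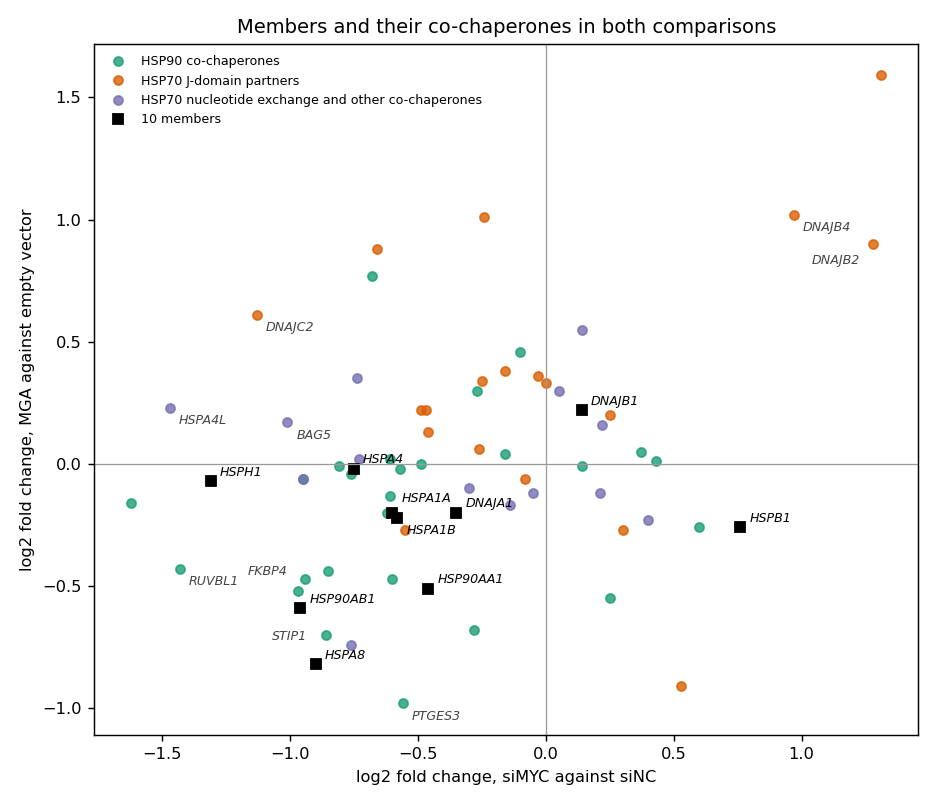
Log2 fold change with siMYC (x axis) against that with MGA (y axis), both linear in log2 units, for the tested genes of the HSP90 co-chaperone, J-domain and exchange factor lists and for the members. HSP90 co-chaperones lie mostly left of 0 (17 of 26 fell with siMYC), DNAJB2 and DNAJB4 lie at the upper right, and STIP1, PTGES3 and FKBP4 lie at the lower left.

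Of the 10 genes listed as small heat shock proteins outside the members, 2 were tested, HSPB8 and HSPB11. The listing of HSPB11 rests on its symbol. HSPB8, which works with BAG3 in clearing misfolded proteins, stood at 63.0 and 58.4 CPM with MGA, against 46.3 and 28.8 CPM with empty vector (log2 fold change 0.69, adjusted p = 0.068). With siMYC it stood at 31.3 and 24.6 CPM, against 8.57 and 12.8 CPM with siNC, and rose by 1.37 (adjusted p = 0.00029). HSPB11 did not pass in either comparison. HSF1, the stress regulator of these genes, stood at 118 and 116 CPM with MGA, against 86.8 and 102 CPM with empty vector (0.31, adjusted p = 0.24). The siMYC libraries gave 84.6 and 85.9 CPM, against 108 and 112 CPM with siNC (-0.37, adjusted p = 0.022). The HSF1 call was lost in 6 of 19 alternatives, including those without siNC replicate B or siMYC replicate A. HSF2, HSF4 and the HSF-binding HSBP1 did not pass in either comparison. HSF1 works through its protein, which RNA does not measure.

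The genes whose pattern over the 8 libraries lay closest to HSP90AB1 were ELOVL6, TCP1 and PRKDC, with a root mean square difference in centred log2 CPM of 0.079, 0.082 and 0.083, against a median of 0.56 over all genes tested. TCP1 is a subunit of the cytosolic chaperonin. HSPA8 was at 0.144 from HSP90AB1 and HSP90AA1 at 0.185, while HSPB1 was at 0.82. Of the other members, HSPA4 was at 0.224 and HSPA1A at 0.357. Nearer the median of all genes were HSPH1 at 0.5, HSPA1B at 0.524, DNAJB1 at 0.559 and DNAJA1 at 0.605. For HSPA8 the closest genes included HSP90AB1 (0.144) and ELOVL6 (0.154), against a median of 0.6. The 8 points of each pattern share the same 4 groups of libraries.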

How the data were processed

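RNA of A549 cells was sequenced after poly(A) selection. Per the submitters' processing notes the tools were STAR and RSEM and the build was hg19. Versions, annotation and the use of strand: not given in the sources used here. Each table the authors deposited holds, per the file headers, an expected count per gene (reads that fit several genes are divided among them), a TPM (scaled to length and library) and an expression-weighted transcript length.

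Expected counts were rounded, filtered with filterByExpr (minimum count 10, minimum total 15), scaled by TMM and fitted for all 4 groups together in edgeR 4.0.16 (R 4.3.3) with the quasi-likelihood F test. The test was tried on simulated data with the same spread in every group and changes in the MGA libraries alone. That trial does not cover groups of unequal spread or replicates that deviate alike. P-values are two-sided and adjusted by the Benjamini-Hochberg method over 11218 genes. Adjusted p-values are edgeR's unless another tool is named. Normalised read counts (CPM) are TMM-scaled. Alternatives were other size factors, no filter, a fit of each experiment alone, removal of the MGA reads, summed copies, a replicate block, DESeq2 1.42.0, limma 3.58.1 on log2(TPM + 1) and log2(TPM + 0.1), and leaving out each library. With 2 libraries a group, exact permutation can reach no p below 0.333, and none is given.

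The members and lists were chosen with earlier results of these data known. All members were named. From each list the 4 genes with the smallest adjusted p in either comparison were named, and for HSP90AB1 and HSPA8 the 3 genes closest in pattern; a few genes are not reported here. Nothing says that the replicates were separate cultures, so p-values measure a spread between libraries that may be technical. The reported fit estimated that spread over all 4 groups together. Chi-square per degree of freedom between replicates was 1.85 with siMYC and 1.82 with siNC, against 1.13 with MGA and 1.18 with empty vector. It was taken on unscaled counts and rises with depth at equal relative spread. The siRNA libraries were deeper, so it does not by itself show a larger spread there. For the sum of HSPA1A and HSPA1B, replicates lay 0.73 (siMYC) and 0.77 (siNC) log2 units apart, beside an SE of 0.17. Intervals with siMYC can thus be too narrow for members with uneven replicates. Promoter sequences come from RefSeq on GRCh38.p14, and no hg19 coordinates are given.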

Additional observations from a re-analysis of the deposited data

How the results depend on the processing

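Of the member calls, those of HSP90AB1 in both comparisons and of HSPA4, HSPH1 and HSPB1 with siMYC kept direction and side of the threshold in all 19 alternatives. The count of called members was 3 with MGA, 9 with siMYC and 4 for the difference. It was 1 with MGA on log2(TPM + 0.1) in limma, 5 and 4 with siMYC on log2(TPM + 1) and log2(TPM + 0.1), and 1 for the difference on either. Over all genes tested, 1005, 4370 and 2076 were called. DESeq2 called 343, 1967 and 812, limma on log2(TPM + 1) 82, 1245 and 347, and limma on log2(TPM + 0.1) 63, 1191 and 331. Without 1 library the all-gene count was 402 to 1121 with MGA and 1309 to 1937 for the difference. With MGA 556 genes rose and 449 fell, against 387 and 628 under upper-quartile scaling and 300 and 821 by library sizes alone, where the median of all genes was -0.116. The difference split 1154 higher and 922 lower, against 804 and 1188 (upper quartile) and 714 and 1357 (library sizes). Values uncalled in the reported fit that changed sign were HSPA4 with MGA (0.11 on both TPM scales, -0.11 to 0.06 without 1 library) and HSPH1 with MGA (-0.15 to 0.01 without 1 library). For the difference, HSPA8 was -0.05 (upper quartile), -0.10 (library sizes), -0.01 (MGA reads removed) and -0.06 (both TPM scales), and DNAJB1 was -0.04, -0.09, -0.01 and -0.28 there. DNAJA1 was -0.02 by library sizes. Without 1 library the difference ran from -0.13 to 0.26 for HSPA8, -0.06 to 0.22 for DNAJB1, -0.06 to 0.41 for DNAJA1, -0.12 to 0.92 for HSPA1B, -0.03 to 0.83 for the sum of HSPA1A and HSPA1B, and -0.11 to 0.02 for HSP90AA1. The differences of HSPA1A, HSPA1B and their sum passed without siNC replicate B (0.74, 0.75 and 0.75) and without siMYC replicate A (0.77, 0.92 and 0.83). With siMYC the median of all genes was 0.139 and 0.147 on the TPM scales, against 0.011. The cause of these shifts was not tested.

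The labels do not say whether the letters A and B mark pairs, and the reported fit did not pair them. The A minus B deviations of the groups correlated at -0.015 in the vector experiment. In the siRNA experiment the correlation was 0.313, so the deviations were partly shared there. The reason was not tested. A replicate block within each experiment called 3, 9 and 5 members and 1176, 4657 and 2292 genes, and under it the difference for the sum of HSPA1A and HSPA1B passed (0.43, adjusted p = 0.014). HSPB1 with MGA passed by library sizes (-0.39, adjusted p = 0.03), and DNAJA1 with MGA passed in a fit of its own experiment (-0.22, adjusted p = 0.042). The alternatives for the lists of partner genes were run after their values were seen. With 2 shallow libraries a group, small differences are not detectable.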

Other observations

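Of the genes known as heat-inducible outside the members, 20 listed and 16 tested, 8 fell with siMYC and 3 rose (median log2 fold change -0.37), where 20% of all genes tested fell and 19.0% rose. On either TPM scale in limma 4 fell and 3 rose with siMYC, at a median of -0.051. With MGA 3 fell and 1 rose (median -0.13), where 4.0% of all genes tested fell and 4.96% rose, and 1 fell and 0 rose on either TPM scale. With MGA 2 were called when either empty vector library or MGA replicate B was left out. Of the members of this list, FKBP4, STIP1, AHSA1, CACYBP, CHORDC1 and PPID also stand on the HSP90 co-chaperone list. CACYBP, which binds HSP90 and the ubiquitin ligase SIAH1, fell by 0.97 with siMYC (adjusted p = 6.2e-07) and was at -0.52 with MGA (adjusted p = 0.054). The following were chosen after their values were seen. Among the risers with siMYC, besides HSPB8, was SERPINH1 (HSP47), the collagen chaperone of the endoplasmic reticulum (0.58, adjusted p = 0.00024). UBB, a polyubiquitin gene, fell by 0.39 with MGA (adjusted p = 0.0048) and was at 0.07 with siMYC (adjusted p = 0.52), a difference between responses of -0.46 (adjusted p = 0.0069). BAG3, a heat-inducible exchange factor, was at -0.12 with MGA (adjusted p = 0.71) and at -0.05 with siMYC (adjusted p = 0.84).

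The deposited transcript length of HSPA8, which RSEM weights by isoform, was 1594 bases in MGA replicate A and 2024 bases in MGA replicate B, against 1826 and 1741 bases with empty vector. The MGA replicates of HSPA8 stood at 1084 and 988 CPM but at 1157 and 805 TPM. For HSPA4 the length was 4825 bases in 5 libraries, and 4227 bases in MGA replicate B, 4216 in siNC replicate A and 4483 in siNC replicate B.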
